A study of Mus musculus with 9 samples.

Results

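The mitochondrial ribosomal proteins of the embryonic mouse brain were followed as a gene family, chosen by name: every gene whose symbol consists of Mrpl or Mrps, a number and at most 1 further letter. Of the 56748 genes in the table, 78 met this rule, 49 named Mrpl for the large subunit and 29 named Mrps for the small subunit. All are protein-coding, and they lie on 17 chromosomes, none of them on X or Y. RNA-seq was made from whole brain at embryonic day 14 in 9 libraries, 3 in each of 3 groups. The first group was exposed to valproic acid, an anticonvulsant that inhibits histone deacetylases, and the second to poly(I:C), a synthetic double-stranded RNA that imitates a viral infection. The third, the control, was given saline and is called wild type in the series' design. Both exposures before birth are used in mice as models of autism spectrum disorder, and the series concerns Notch signalling in such models. The labels name neither strain, dose, time of exposure, litter nor sex, and do not say that replicates are separate animals. The p-values therefore measure the spread between these libraries. That spread may be technical, except that sex-linked signals, given below, differed within the poly(I:C) and control groups.

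Mitochondria keep a small genome that encodes core proteins of the respiratory chain, and they translate it on ribosomes of their own. The RNAs of these ribosomes are made inside the organelle, whereas every mitochondrial ribosomal protein is encoded in the nucleus, made in the cytosol and imported. Part of the family descends from bacterial ribosomal proteins, and the rest was added in the mitochondrial lineage. Defects in mitochondrial translation lower respiratory capacity, and in humans inherited defects of several members cause disease that often involves the brain.

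Between 15399974 and 19883131 reads were counted per library. Markers of the labelled tissue were abundant, with summed levels of 6966 to 7923 CPM (counts scaled to a common library size with trimmed mean of M-values factors) over 10 genes of postmitotic neurons and 2075 to 2394 CPM over 10 genes of radial glia in the 9 libraries. Of 7 markers of muscle, skin and cartilage, 6 stayed below 1 CPM in every library, and only the cartilage collagen Col2a1 was higher, at 63.1 to 77.98 CPM. Xist, the RNA of the inactive X chromosome, marked all 3 libraries exposed to valproic acid as well as poly(I:C) replicate 3 at 981 to 1055 CPM, with 0.236 CPM as its highest value elsewhere. Summed Y-linked genes reached 196 to 201 CPM in poly(I:C) replicates 1 and 2 and in control replicates 1 and 2, and were at 0 in the other libraries. Control replicate 3 thus had neither signal and its sex cannot be read, so that the sex covariates used as alternatives place it differently: with the Y-bearing libraries by Xist and with the Xist-bearing ones by Y-linked expression. Since no control had Xist and all valproic acid libraries did, sex and exposure to valproic acid cannot be told apart. The Xist covariate was estimated almost wholly from the poly(I:C) libraries, the only group with and without Xist. Losing a call with it therefore cannot separate sex from exposure.

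Nuclear respiratory factor 1 (NRF1), ETS-family factors such as GABPA, and YY1 are known activators of nuclear genes for mitochondrial proteins. RefSeq promoters (build GRCm38.p6) were found for 69 of the 78 members, 75 promoters in all, and the 250 bases upstream of the start were searched on both strands. The NRF1 motif, whose matches on either strand stand in capitals in the sequences printed here, was in 13.3% of member promoters, against 7.25% of promoters of protein-coding genes tested here. For the ETS motif CCGGAAG the shares were 24% of member promoters against 12.1%, and for the YY1 motif AAGATGGC 5.33% against 1.77%. The TATA box TATAAA was in 6.67% of member promoters against 6.5%, and CCAAT in 37.3% against 34.8%. Over all 32851 promoters of the table the shares were 3.74% for NRF1, 6.91% for ETS and 1.56% for YY1. These differ in composition: the median GC content was 52.4%, against 58.4% for member promoters and 59.6% for those of protein-coding genes tested. The median number of CG pairs was 6, 17 and 15 in that order, and the part of composition in the shares was not tested. Promoters of 1 gene count separately, and the YY1 share of members rests on 4 promoters. In all, 30 of the 69 members with a promoter had at least 1 match to the NRF1, ETS or YY1 motif. The matching share of other genes was not computed. Shown here are the upstream sequences of Mrpl45 and Mrpl23, the members with the smallest p-values for valproic acid against control, and of Mrpl12, the counterpart of the bacterial stalk protein L7/L12. They lie, in the same order, at chr11:97315466-97315715, chr7:142532782-142533031 and chr11:120484387-120484636, all on the plus strand. Mrpl45 has 2 NRF1 matches, Mrpl23 none and Mrpl12 1, and none of the 3 has an ETS or YY1 match.
Mrpl45: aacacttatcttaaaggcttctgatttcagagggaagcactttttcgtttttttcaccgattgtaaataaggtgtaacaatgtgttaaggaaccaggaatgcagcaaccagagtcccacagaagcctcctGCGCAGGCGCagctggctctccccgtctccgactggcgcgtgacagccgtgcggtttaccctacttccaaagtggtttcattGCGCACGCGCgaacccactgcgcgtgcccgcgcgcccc
Mrpl23: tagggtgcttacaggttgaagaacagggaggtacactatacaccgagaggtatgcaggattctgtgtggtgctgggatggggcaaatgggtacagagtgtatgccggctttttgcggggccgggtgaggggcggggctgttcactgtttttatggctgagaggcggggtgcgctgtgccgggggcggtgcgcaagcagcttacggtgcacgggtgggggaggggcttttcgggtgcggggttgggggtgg
Mrpl12: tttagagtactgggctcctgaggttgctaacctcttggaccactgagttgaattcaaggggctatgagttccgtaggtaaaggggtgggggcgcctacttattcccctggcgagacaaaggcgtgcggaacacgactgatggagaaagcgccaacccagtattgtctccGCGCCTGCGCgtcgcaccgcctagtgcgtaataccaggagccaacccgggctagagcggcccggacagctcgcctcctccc

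All but 1 of the members were readily counted. Of the 78, 77 passed the filter on low counts; among these the lowest count in any library was 106, and control means ran from 6.82 CPM for Mrps18b to 76.4 CPM for Mrps5. The exception, Mrpl53, had 0 counts in all 9 libraries; each of its 695 exon bases also lies in Gm42688 on the same strand, which had 16 to 37 counts per library, so its level cannot be read here. Per kilobase of transcript, the median member stood at 19.2 CPM in valproic acid, 19.1 in poly(I:C) and 18.7 in control brains. The median protein-coding gene tested had 9.04 CPM per kilobase in control brains, the median nuclear-encoded respiratory chain gene 79.0 and the median cytosolic ribosomal protein gene 357. In controls the highest members per kilobase were Mrpl52 at 82.4, Mrps21 at 69.8 and Mrpl34 at 66.5 CPM. At the low end, Mrpl1 and Mrps25 both stood at 4.19 CPM per kilobase and Mrpl19 at 4.85. These lengths are those of 1 main transcript per gene, and with all exons of a gene counted the order differs, with Mrpl34 first.

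The summed level of the family was similar in the 3 groups. It was 2452, 2398 and 2329 CPM in the 3 valproic acid libraries, 2340, 2276 and 2320 CPM in the poly(I:C) libraries, and 2342, 2320 and 2335 CPM in the controls. One valproic acid library lay inside the control range and the other two above it. The sum over Mrpl genes was 1638, 1589 and 1557 CPM with valproic acid, 1556, 1513 and 1537 CPM with poly(I:C), and 1547, 1546 and 1546 CPM in controls. The sum over Mrps genes was 815, 809 and 773 CPM with valproic acid, 784, 763 and 783 CPM with poly(I:C), and 795, 774 and 789 CPM in controls. In RNA from whole tissue, fewer cells of a type and less RNA per cell cannot be told apart.

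**Figure D1:**
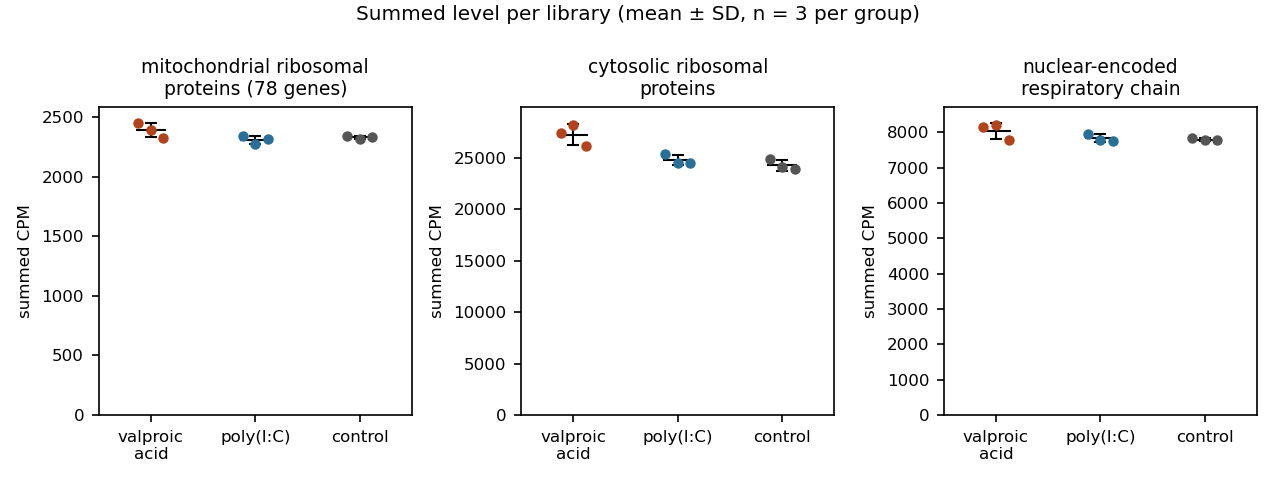
Summed CPM per library (points) with mean and SD (bars, n = 3 libraries per group) for mitochondrial ribosomal protein genes, cytosolic ribosomal protein genes and nuclear-encoded respiratory chain genes, each axis starting at 0. The mitochondrial ribosomal protein sums lie between 2276 and 2452 CPM in all 9 libraries.

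No member passed the test in any of the 3 comparisons by edgeR's quasi-likelihood test (adjusted p under 0.05 over the 17171 genes tested), and none did by DESeq2. Of all genes tested, 6.35% were called between valproic acid and control, 0.536% between poly(I:C) and control, and 2.59% between valproic acid and poly(I:C). At an unadjusted p under 0.05, 9 members stood out in the comparison of valproic acid with control (11.7% of members against 22.1% of all genes tested). Of these, 8 were higher and 1 lower with valproic acid, where the shares over all genes were 11.2% higher and 10.9% lower. With poly(I:C) the count against control was 4 members, 1 higher and 3 lower (5.19% against 12% of all genes tested, of which 6.2% higher and 5.82% lower). For valproic acid against poly(I:C) it was 6, all higher with valproic acid (7.79% against 16.6% of all genes tested, of which 8.21% higher and 8.43% lower). The smallest adjusted p of any member was 0.0502 for valproic acid against control, 0.345 for poly(I:C) against control and 0.112 between the exposures. Both comparisons with control use the same 3 control libraries.

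Fold changes of the members were small and their intervals narrow. The 77 log2 fold changes of valproic acid against control ran from -0.22 to 0.22 with a median of 0.042, and 47 were positive (61%, against 49.1% of all genes tested); over all genes tested the median was -0.0033. Without valproic acid replicate 1 the median was 0.0048. With poly(I:C) the log2 fold changes against control ran from -0.22 to 0.18 with a median of -0.0061, and 36 were positive (46.8% against 48.9%). For valproic acid against poly(I:C) they ran from -0.13 to 0.25 with a median of 0.049, and 62 of 77 were positive (80.5%, against 50% of all genes tested). The 95% interval of the fold change lay within 1.5-fold either way for all 77 members between valproic acid and control, for 76 between poly(I:C) and control, and for 77 between the exposures. Within 1.25-fold lay the intervals of 62, 68 and 62 members in the same order of comparisons. The one interval beyond 1.5-fold was that of Mrps10 between poly(I:C) and control.

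**Figure D2:**
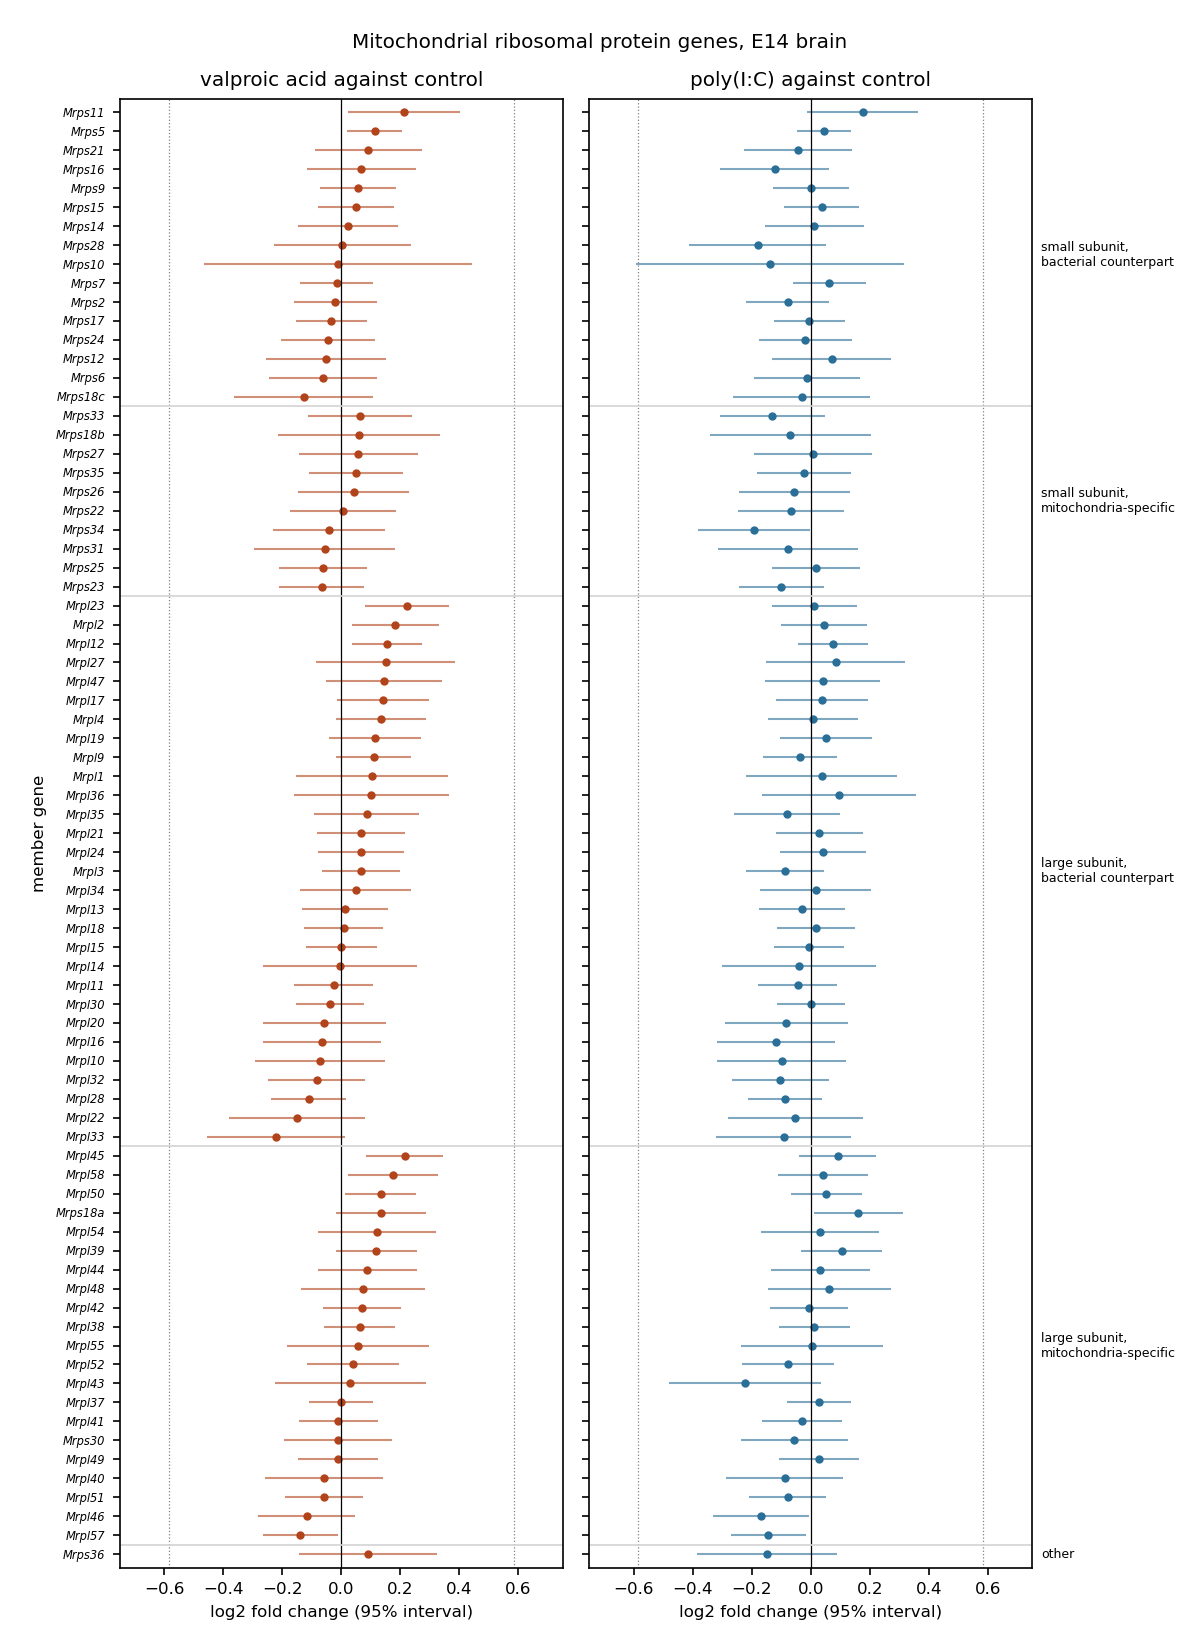
Log2 fold change (points) with 95% interval (lines) of the 77 tested members, valproic acid against control on the left and poly(I:C) against control on the right, grouped by subunit and origin. Dotted lines mark 1.5-fold either way; only the interval of Mrps10 with poly(I:C) crosses one.

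With valproic acid, the member nearest to the threshold was Mrpl45, a protein of the large subunit near the exit of the nascent chain that helps to hold the ribosome at the inner membrane. It stood at 37.2, 34.3 and 34.0 CPM with valproic acid, against 30.4, 29.7 and 30.8 CPM in controls. Every valproic acid library was above every control, and the log2 fold change was 0.22 (SE 0.0611, adjusted p = 0.0502). With the 3 poly(I:C) libraries at 32.5, 31.5 and 32.8 CPM, Mrpl45 lay between the other two groups. Mrpl23, a protein at the exit tunnel, stood at 47.3, 42.0 and 44.6 CPM with valproic acid, 38.1, 37.6 and 39.99 CPM with poly(I:C), and 37.0, 41.7 and 36.1 CPM in controls. The lowest valproic acid library was just above the highest control, with a log2 fold change of 0.22 (SE 0.0669, adjusted p = 0.0612). Both genes passed the threshold under some alternative settings: Mrpl45 with DESeq2 size factors (adjusted p = 0.0492) and with a filter at 1 CPM (adjusted p = 0.0479), Mrpl23 with no filter (adjusted p = 0.0436) and without control replicate 2 (adjusted p = 0.0335). Other alternatives moved them away from it: with Xist as a covariate the log2 fold change was 0.18 for Mrpl45 (adjusted p = 0.651) and 0.14 for Mrpl23 (adjusted p = 0.761), and with a library left out the adjusted p reached 0.172 for Mrpl45 and 0.202 for Mrpl23.

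Further members with positive values included Mrps11, a small-subunit protein with a bacterial counterpart, at 28.5, 28.7 and 25.3 CPM with valproic acid against 26.5, 23.8 and 21.1 CPM in controls. The groups overlapped (log2 fold change 0.21, SE 0.0883, adjusted p = 0.168). Mrpl2, a conserved core protein of the large subunit, had 35.7, 37.4 and 39.5 CPM with valproic acid against 34.4, 30.7 and 33.9 CPM in controls, without overlap (0.18, SE 0.0687, adjusted p = 0.127). Mrpl58, a peptidyl-tRNA hydrolase built into the large subunit, had 45.6, 42.4 and 43.1 CPM with valproic acid against 38.6, 34.9 and 42.5 CPM in controls, with overlap (0.18, SE 0.0711, adjusted p = 0.156). Mrpl12 had 51.1, 50.2 and 45.9 CPM with valproic acid against 45.6, 42.8 and 43.9 CPM in controls, where the lowest exposed library was just above the highest control (0.16, SE 0.0555, adjusted p = 0.11). Mrps5, a conserved small-subunit protein and the most abundant member in CPM, had the smallest standard errors of the family, with 81.8, 83.2 and 82.8 CPM with valproic acid against 76.0, 78.03 and 75.1 CPM in controls. Its groups did not overlap, yet the log2 fold change was 0.11 (SE 0.0435, adjusted p = 0.139).

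On the lower side, Mrpl33, a small protein of the large subunit with a bacterial counterpart, had 18.5, 16.8 and 13.8 CPM with valproic acid against 21.0, 17.4 and 19.0 CPM in controls. The groups overlapped (log2 fold change -0.22, SE 0.109, adjusted p = 0.252). Mrpl57, a mitochondria-specific protein of the large subunit, had 30.8, 30.8 and 31.1 CPM with valproic acid, 31.3, 29.4 and 31.7 CPM with poly(I:C), and 34.1, 33.2 and 34.7 CPM in controls. Both exposed groups lay wholly below the controls, with a log2 fold change of -0.14 in each comparison (SE 0.0598 and adjusted p = 0.185 for valproic acid, SE 0.0595 and adjusted p = 0.345 for poly(I:C)). Mrpl22, whose bacterial counterpart lines the exit tunnel, had 12.9, 15.6 and 14.5 CPM with valproic acid against 14.99, 17.0 and 15.7 CPM in controls, with overlap (-0.15, SE 0.108, adjusted p = 0.455). Mrps18c had 10.9, 12.1 and 11.6 CPM with valproic acid against 12.9, 11.1 and 13.8 CPM in controls, also with overlap (-0.13, SE 0.11, adjusted p = 0.546). All valproic acid libraries lay above all controls for 8 members (10.4% of the 77, against 12.6% of all genes tested) and below them for 3 (3.9% against 13%). The 8 were Mrpl2, Mrpl12, Mrpl23, Mrpl39, Mrpl45, Mrpl50, Mrps5 and Mrps18a, and the 3 were Mrpl28, Mrpl46 and Mrpl57.

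**Figure D3:**
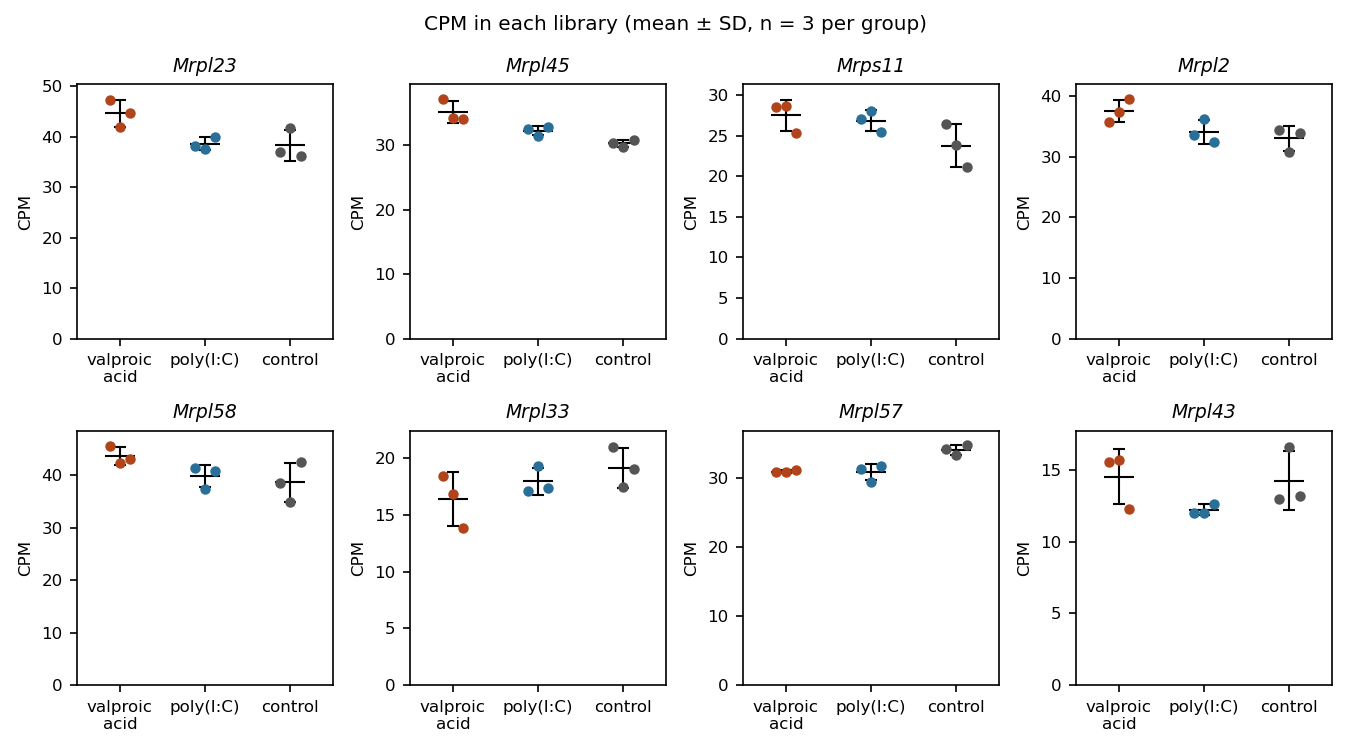
CPM in each library (points) with mean and SD (bars, n = 3 libraries per group) for 8 of the members described, each axis starting at 0. Mrpl45 and Mrpl23 stand above the controls in all 3 valproic acid libraries, Mrpl57 below them in both exposed groups, and none passed the test.

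With poly(I:C), the most negative member was Mrpl43, a mitochondria-specific protein of the large subunit, at 12.04, 11.97 and 12.7 CPM against 13.0, 16.6 and 13.2 CPM in controls. The groups did not overlap, but control replicate 2 was above the other two controls (log2 fold change -0.22, SE 0.121, adjusted p = 0.5). Mrpl43 shares 507 exon bases with Twnk, the mitochondrial DNA helicase on the opposite strand, whose log2 fold change was 0.02. Mrps34, a mitochondria-specific small-subunit protein, had 21.6, 20.9 and 20.4 CPM with poly(I:C) against 24.7, 23.5 and 23.6 CPM in controls, without overlap (-0.19, SE 0.0887, adjusted p = 0.414); 763 of its exon bases also belong to Nme3 on the same strand. Mrps28 had 9.11, 9.01 and 9.19 CPM with poly(I:C) against 10.9, 9.14 and 10.8 CPM in controls, with overlap (-0.18, SE 0.109, adjusted p = 0.562).

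Mrpl46, a mitochondria-specific large-subunit protein, had 18.0, 16.9 and 17.7 CPM with poly(I:C) and 17.8, 19.1 and 17.6 CPM with valproic acid, against 19.4, 20.0 and 19.7 CPM in controls. Both exposed groups lay below the controls (log2 fold change -0.17, adjusted p = 0.4 for poly(I:C), and -0.12, adjusted p = 0.404 for valproic acid). Its neighbour Mrps11, read from the opposite strand and sharing 173 exon bases with it, differed in the other direction: 27.1, 28.0 and 25.4 CPM with poly(I:C) against 26.5, 23.8 and 21.1 CPM in controls (0.18, SE 0.088, adjusted p = 0.452). Mrps18a, a member of the S18 family that sits in the large subunit despite its name, had 29.3, 27.1 and 27.0 CPM with poly(I:C) against 23.5, 26.4 and 24.6 CPM in controls, without overlap (0.16, SE 0.0706, adjusted p = 0.376). Mrpl39 had 34.7, 32.7 and 32.2 CPM with poly(I:C) against 30.8, 29.96 and 31.9 CPM in controls, likewise without overlap (0.10, SE 0.0641, adjusted p = 0.566). Mrpl36 had 15.3, 16.5 and 21.4 CPM with poly(I:C) against 17.7, 16.02 and 15.98 CPM in controls, where only the third poly(I:C) library exceeded the controls (0.10, SE 0.122, adjusted p = 0.809). In all, the poly(I:C) libraries lay above every control for 4 members (5.19%, against 9.6% of all genes tested) and below for 5 (6.49% against 8.83%). The 4 were Mrpl12, Mrpl39, Mrpl45 and Mrps18a, and the 5 were Mrpl43, Mrpl46, Mrpl52, Mrpl57 and Mrps34.

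Between the exposures, Mrpl23 had the smallest p, with a log2 fold change of 0.21 for valproic acid against poly(I:C) (SE 0.0669, adjusted p = 0.112) and no overlap. Mrpl43 had the highest log2 fold change, at 15.6, 15.7 and 12.3 CPM with valproic acid against 12.04, 11.97 and 12.7 CPM with poly(I:C) (0.25, SE 0.121, adjusted p = 0.312), and here the groups overlapped. Mrps36, which despite its symbol is a subunit of the 2-oxoglutarate dehydrogenase complex and not of the ribosome, had 12.9, 14.6 and 14.5 CPM with valproic acid against 10.3, 13.6 and 11.7 CPM with poly(I:C), with overlap (0.24, SE 0.111, adjusted p = 0.294). Mrps33 had 29.1, 31.6 and 33.1 CPM with valproic acid against 28.8, 23.8 and 29.4 CPM with poly(I:C), overlapping by 1 library (0.19, SE 0.0836, adjusted p = 0.257). Mrps16, a small-subunit protein with a bacterial counterpart, had 19.8, 21.7 and 18.8 CPM with valproic acid against 18.9, 16.9 and 17.1 CPM with poly(I:C), again overlapping narrowly (0.19, SE 0.0868, adjusted p = 0.288). Negative values were smaller: Mrps12, a protein of the decoding centre, had 19.5, 21.7 and 21.0 CPM with valproic acid against 22.1, 20.4 and 25.2 CPM with poly(I:C), with overlap (-0.12, SE 0.0948, adjusted p = 0.565). All valproic acid libraries lay above all poly(I:C) libraries for 7 members (9.09%, against 10.5% of all genes tested) and below them for 0 members (against 11.4%).

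By place in the ribosome, the 4 groups of members had medians near 0. The 29 large-subunit proteins with a bacterial counterpart had a median log2 fold change of 0.066 between valproic acid and control, and 0.0016 between poly(I:C) and control. For the 21 tested mitochondria-specific proteins of the large subunit the medians were 0.057 and 0.013. The 16 small-subunit proteins with a bacterial counterpart had medians of -0.0040 and -0.0085, and the 10 mitochondria-specific ones 0.024 and -0.068. In that last group, singled out after its values were seen, 2 of 10 members were positive between poly(I:C) and control (20%, against 46.8% of all tested members and 48.9% of all genes tested). Between valproic acid and poly(I:C), which share the poly(I:C) libraries, 9 of 10 were positive (90%, against 80.5% and 50%). Its summed level was 243, 242 and 234 CPM with valproic acid, 231, 222 and 232 CPM with poly(I:C), and 241, 234 and 244 CPM in controls. The poly(I:C) libraries were the lowest 3 of the 9, and Mrps34 alone had an unadjusted p under 0.05 (0.0492) in that group between poly(I:C) and control. The S18 family, in which 3 genes take different places in the ribosome, ran from the least abundant member Mrps18b, at 7.42, 6.88 and 7.07 CPM with valproic acid, 6.72, 5.82 and 7.01 CPM with poly(I:C), and 6.61, 6.54 and 7.32 CPM in controls, to Mrps18a at a control mean of 24.8 CPM. Mrps30, another large-subunit protein with a small-subunit symbol, had log2 fold changes of -0.01 with valproic acid and -0.05 with poly(I:C) against control.

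Libraries within a group agreed closely for most members. The median coefficient of variation over members was 5.64% with valproic acid, 4.85% with poly(I:C) and 5.13% in controls, and the median standard error of a log2 fold change was 0.0745 between valproic acid and control. Mrps10, a small-subunit protein with a bacterial counterpart, was the most variable, at 25.3, 14.5 and 13.9 CPM with valproic acid, 14.6, 15.2 and 19.6 CPM with poly(I:C), and 21.2, 13.0 and 20.1 CPM in controls. High and low libraries occurred in each group, and its intervals were the widest of the family (SE 0.212 for valproic acid against control). The 3 valproic acid libraries differed in level: relative to the control mean, 54 of 77 members lay above it in replicate 1 (median log2 difference 0.068), 49 in replicate 2 (0.036) and 35 in replicate 3 (-0.0098). In the poly(I:C) libraries the count above was 39, 26 and 42, and in the single control libraries it was 42, 35 and 37.

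Subunits of the mitochondrial ribosome that carry other symbols included the one protein component that was called with poly(I:C). Dap3, a GTP-binding protein of the small subunit first described in cell death, stood at 72.2, 71.9 and 67.3 CPM with valproic acid, 52.7, 51.4 and 52.2 CPM with poly(I:C), and 63.8, 70.3 and 64.3 CPM in controls. It fell with poly(I:C) to below every other library, with a log2 fold change of -0.34 against control (SE 0.0528, adjusted p = 0.00751). For valproic acid against poly(I:C) the log2 fold change was 0.44 (SE 0.0529, adjusted p = 0.000666), and against control valproic acid gave 0.09 (SE 0.0522, adjusted p = 0.324). The fall and the difference between the exposures were called in all 9 other settings and without each of the 6 libraries in turn. Dap3 shares 352 exon bases with Ash1l on the opposite strand. Gadd45gip1, a large-subunit protein, rose with valproic acid, at 14.7, 15.97 and 14.3 CPM against 12.4, 11.5 and 11.2 CPM in controls (0.36, SE 0.092, adjusted p = 0.0323). That call was kept in 4 of 9 other settings and lost without any 1 of the 6 libraries (adjusted p up to 0.104); with Xist as a covariate the log2 fold change was 0.30 (adjusted p = 0.613). Aurkaip1, a small-subunit protein also known as a regulator of Aurora kinase A, had 34.4, 34.3 and 40.3 CPM with valproic acid, 32.8, 27.8 and 28.0 CPM with poly(I:C), and 29.6, 29.7 and 31.0 CPM in controls. It was named after its values were seen: the valproic acid libraries lay above all the others, with log2 fold changes of 0.27 against control (adjusted p = 0.0637) and 0.30 against poly(I:C) (adjusted p = 0.0722), both called by DESeq2. Ptcd3 and Chchd1, the remaining 2 of the 5, did not pass in any comparison.

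The ribosomal RNAs of the organelle rose with valproic acid. The large-subunit RNA mt-Rnr2 stood at 503, 616 and 524 CPM with valproic acid, 444, 467 and 428 CPM with poly(I:C), and 389, 418 and 350 CPM in controls. The 3 groups did not overlap, and the log2 fold change was 0.51 for valproic acid against control (SE 0.0707, adjusted p = 0.00116), 0.21 for poly(I:C) against control (SE 0.0707, adjusted p = 0.234) and 0.30 between the exposures (SE 0.0706, adjusted p = 0.0414). The small-subunit RNA mt-Rnr1 had 300.1, 356 and 343 CPM with valproic acid, against 288, 288 and 255 CPM in controls, without overlap (0.27, SE 0.0672, adjusted p = 0.0311). It was also higher with poly(I:C) than in controls, without overlap but not called (log2 fold change 0.15). Both RNAs had an unadjusted p under 0.05 by edgeR in that comparison. Between the exposures mt-Rnr1 overlapped and was not called (0.11). Against control, the call of mt-Rnr2 with valproic acid held without each of the 6 libraries, and that of mt-Rnr1 in 2 of 6 cases; it was lost without control replicate 1 (adjusted p = 0.0622) or 3 (0.117) and without valproic acid replicate 2 (0.101) or 3 (0.093). With Xist as a covariate the log2 fold changes were as large or larger, 0.60 for mt-Rnr2 (SE 0.13) and 0.36 for mt-Rnr1 (SE 0.123), but neither was called (adjusted p = 0.155 and 0.369). With Y-linked expression as a covariate both were called, at 0.61 (adjusted p = 0.00218) and 0.36 (adjusted p = 0.0313). The libraries had been depleted of ribosomal RNA, so these counts are what the depletion left, and its part in the difference was not tested.

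**Figure D4:**
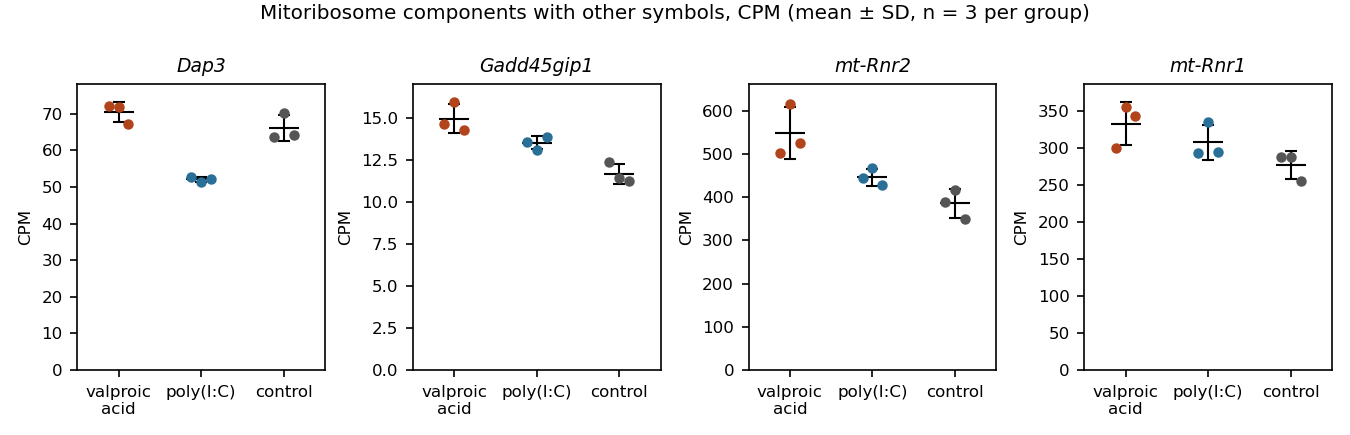
CPM in each library (points) with mean and SD (bars, n = 3 libraries per group) for Dap3, Gadd45gip1 and the 2 mitochondrial ribosomal RNAs, each axis starting at 0. Dap3 is lowest in the 3 poly(I:C) libraries, and mt-Rnr2 is highest in the 3 valproic acid libraries.

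In the wider machinery of mitochondrial translation edgeR called 1 gene, the translation factor Guf1. Of 24 assembly factors of the ribosome, 0 were called in each comparison by edgeR and by DESeq2, with 2 at an unadjusted p under 0.05 in each (8.33%, against 22.1%, 12% and 16.6% of all genes tested for valproic acid against control, poly(I:C) against control and valproic acid against poly(I:C)). Of 20 mitochondrial tRNA synthetases, which charge the tRNAs used there, edgeR called 0, with 2, 1 and 6 at an unadjusted p under 0.05 in the same order (10%, 5% and 30% of them). The 6 were all higher with valproic acid, and the median log2 fold change of the 20 between the exposures was 0.10. DESeq2 called 1 of them, Aars2, between the exposures. Aars2 had 32.2, 23.3 and 24.6 CPM with valproic acid and 17.3, 19.1 and 23.4 CPM with poly(I:C) (log2 fold change 0.43, adjusted p = 0.0943 by edgeR). Lars2, the leucine enzyme, had 113, 165 and 179 CPM with valproic acid, 97.1, 88.7 and 119 CPM with poly(I:C), and 116, 157 and 124 CPM in controls. Its values overlapped between all groups, with a log2 fold change of 0.58 between the exposures (SE 0.148, adjusted p = 0.0528). With a library left out, the log2 fold change of Lars2 between the exposures was 0.45 to 0.76 and its adjusted p 0.00536 to 0.215, and the call was made only without valproic acid replicate 1. With Xist as a covariate the log2 fold changes between the exposures were 0.36 for Lars2 (adjusted p = 0.577) and 0.19 for Aars2 (adjusted p = 0.743).

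Of 16 translation factors 1 rose with valproic acid (6.25%, against 3.57% of all genes tested). Guf1, the counterpart of bacterial elongation factor 4, had 57.2, 50.8 and 54.8 CPM with valproic acid, 52.7, 53.9 and 53.9 CPM with poly(I:C), and 46.2, 46.0 and 46.3 CPM in controls. Both exposed groups lay above the controls (log2 fold change 0.23, SE 0.0532, adjusted p = 0.0202 for valproic acid, and 0.21, SE 0.053, adjusted p = 0.103 for poly(I:C)). The call of Guf1 was kept in 1 of 6 cases, that without valproic acid replicate 2, with adjusted p up to 0.0681 without any other library. Of 10 factors of mitochondrial DNA transcription and replication, 0 were called by edgeR or DESeq2. At an unadjusted p under 0.05 by edgeR there were 1, 0 and 2 in the same order of comparisons. These were 10%, 0% and 20% of them, against 22.1%, 12% and 16.6% of all genes tested. Of 9 regulators of mitochondrial biogenesis 1 rose (11.1% against 3.57%). This was Pprc1, a coactivator related to PGC-1alpha, which had 63.9, 55.4 and 62.3 CPM with valproic acid against 48.4, 48.1 and 49.0 CPM in controls, without overlap (0.32, SE 0.0635, adjusted p = 0.0096), and it stayed called without each of the 6 libraries. Neither call held with a sex covariate, a setting that cannot separate sex from exposure to valproic acid here. With Y-linked expression the log2 fold change was 0.22 for Guf1 (adjusted p = 0.119) and 0.26 for Pprc1 (adjusted p = 0.109), and with Xist it was 0.21 for Guf1 (adjusted p = 0.527) and 0.16 for Pprc1 (adjusted p = 0.678). Ppargc1a, which encodes PGC-1alpha, had 12.4, 11.5 and 10.7 CPM with valproic acid against 14.2, 13.3 and 14.6 CPM in controls (-0.28, SE 0.107, adjusted p = 0.134).

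Related gene families, measured with smaller standard errors, gave other counts in the same libraries. Of 76 tested cytosolic ribosomal protein genes, 34 rose with valproic acid against control (44.7%, against 3.57% of all genes tested) and 0 fell, with a median log2 fold change of 0.16, and 21 rose between valproic acid and poly(I:C) (27.6% against 1.42%). Between poly(I:C) and control 1 rose and 1 fell (1.32% each, against 0.262% and 0.274%). Summed, they reached 27439, 28208 and 26151 CPM with valproic acid, 25371, 24521.5 and 24489 CPM with poly(I:C), and 24859, 24092 and 23890 CPM in controls, with the valproic acid libraries above all others. Of 79 nuclear-encoded respiratory chain genes, 3 rose and 1 fell between valproic acid and control (5.06% called, against 6.35% of all genes tested), with a median of 0.033. In the other comparisons 0 were called by edgeR. At an unadjusted p under 0.05 there were 2 between poly(I:C) and control (2.53% against 12%) and 14 between the exposures (17.7% against 16.6%). Between valproic acid and control the median standard error was 0.0466 for cytosolic ribosomal, 0.0556 for respiratory chain and 0.0745 for mitochondrial ribosomal protein genes. Over all genes tested it was 0.0945. With a smaller standard error an equal shift is more readily called, but the median log2 fold changes were not equal. They were 0.16, 0.033 and 0.042 in the same order of families. The part of the standard errors in the counts was not tested. Calls of these families with a sex covariate are not reported here. Whether the mitochondrial family differs from these families was not tested.

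Cell-type markers differed between the same groups. Summed over 10 markers, red cells stood at 2258 to 2619 CPM with valproic acid, 1386 to 2018 CPM with poly(I:C) and 1794 to 2093 CPM in controls, and 4 of the 10 rose with valproic acid against control (40%, against 3.57% of all genes tested). Between valproic acid and poly(I:C), where most members were positive, 8 of the 10 rose (80% against 1.42%). For radial glia, 4 of 10 markers rose with valproic acid against control (40% against 3.57%) and 1 against poly(I:C) (10% against 1.42%). The radial glia sums were 2270 to 2394 CPM with valproic acid, 2167 to 2212 CPM with poly(I:C) and 2075 to 2122 CPM in controls. Of 10 neuronal markers 4 fell with valproic acid against control (40% against 2.78%) and 3 against poly(I:C) (30% against 1.18%), at sums of 6966 to 7367 CPM with valproic acid, 7514 to 7923 CPM with poly(I:C) and 7559 to 7760 CPM in controls. None of these 30 markers was at 0 in any library. All 8 microglia markers were negative against control under both exposures, with 2 called with valproic acid (25% against 2.78%) and 0 with poly(I:C); their sums were 78.1 to 94.01 CPM with valproic acid, 85.8 to 92.03 CPM with poly(I:C) and 97.4 to 103 CPM in controls. Of 8 markers of mural cells and fibroblasts, 4 rose (50% against 1.42%) and 1 fell (12.5% against 1.18%) between valproic acid and poly(I:C). Between valproic acid and control 2 of them fell (25% against 2.78%). Their sums were 608 to 733 CPM with valproic acid, 538 to 571 CPM with poly(I:C) and 607 to 642 CPM in controls. Of 6 endothelial markers 1 rose with valproic acid against control (16.7% against 3.57%) and 1 against poly(I:C) (16.7% against 1.42%). Of 5 choroid plexus markers edgeR called 0, with 0 at an unadjusted p under 0.05. The part of all these cell types in the members' values was not tested.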

How the data were processed

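RNA-seq of whole brain at embryonic day 14 was deposited by the authors as a single table of raw counts, with Ensembl genes in rows and 9 libraries in columns, 3 per group. Per the labels' protocols, total RNA was depleted of ribosomal RNA, randomly fragmented and made into libraries with a NEBNext Ultra kit. Per the submitters' processing notes, reads were aligned with HISAT2 and the build was GRCm39 (mm39); counter, strand setting and annotation are not given in the sources. Reads of overlapping genes therefore cannot be told apart; 33 members share exon bases with another gene, and not every overlap of the other genes named is reported here. Symbols, chromosomes, lengths and exon overlaps between genes came from GENCODE release M21, an annotation of an earlier build whose coordinates are not printed; it named 52073 genes.

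Genes were kept by filterByExpr (minimum count 10, total 15), which left 17171. The 9 libraries entered 1 fit with group means, the quasi-likelihood method of edgeR 4.0.16 (R 4.3.3), with trimmed mean of M-values scaling, and pairs of groups were compared by its two-sided F-test, with Benjamini-Hochberg adjustment at 0.05. Intervals are 95% intervals of that fit. DESeq2 1.42.0, other filters and scalings, a replicate block, sex covariates and leaving out each library were alternatives. The method was tested on simulated counts. The members and gene lists were chosen with earlier results of these data known. Members were named by a rule: the 5 most positive and 5 most negative in each comparison, the 3 highest and 3 lowest per kilobase, those with a role of their own and those that missed the filter; other genes were the called members of each list, or the 2 with the smallest p.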

Additional observations from a re-analysis of the deposited data

Results flagged for a closer look

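Dap3 and mt-Rnr2 are listed because the exposures differed from each other in a direct test, which is also the test of the difference between their effects against the shared controls. The log2 fold change of Dap3 between valproic acid and poly(I:C) was 0.4358 (adjusted p = 0.000666, edgeR), with 3 of 3 valproic acid libraries above every poly(I:C) library. Against control, the log2 fold change was 0.09 for valproic acid and -0.34 for poly(I:C). For mt-Rnr2 it was 0.2953 (adjusted p = 0.0414), again with 3 of 3 valproic acid libraries above. The mt-Rnr2 difference was kept without valproic acid replicate 1 and lost without poly(I:C) replicate 1 (adjusted p = 0.103), 2 (0.0922) or 3 (0.139) and without valproic acid replicate 2 (0.109) or 3 (0.0587); by DESeq2 its adjusted p was 0.0567, and with Xist as a covariate the log2 fold change was 0.36 (adjusted p = 0.244). No member of the mitochondrial ribosomal protein family differed between the exposures at an adjusted p under 0.05.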

How the results depend on the processing

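No member was called in the comparisons of poly(I:C) with control or of valproic acid with poly(I:C) under any of the 9 alternatives or without any 1 library. For valproic acid against control the count was 1 in place of 0 with DESeq2 size factors, with no filter and with at least 1 CPM in 3 libraries, and 0 to 1 over the 6 fits that left out a library. Of 1350 values of the named members under other settings, 1299 stayed within 1 standard error and on the same side of the threshold, 47 moved by more, 4 passed it (Mrpl45 and Mrpl23, above) and 0 changed sign as a call. The median log2 fold change of the members with a library left out was 0.004784 to 0.06396 between valproic acid and control, -0.01719 to -0.001138 between poly(I:C) and control and 0.0237 to 0.07074 between the exposures.

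Counts over all genes moved more. For valproic acid against control, 1090 genes were called, 1661 with no filter, 272 with Y-linked expression and 19 with Xist as a covariate, and 467 to 789 with a library left out. Between poly(I:C) and control the 92 became 464 with no filter, 170 with DESeq2, 42 with Xist and 38 to 63 with a library left out. Between the exposures the 445 became 1057 with no filter, 111 with the Y-linked and 39 with the Xist covariate, and 112 to 294 with a library left out. The causes were not tested. Replicate numbers gave no strong pairing: deviations of same-numbered libraries correlated at -0.042 to 0.131. Between poly(I:C) and control all correlations were positive, at 0.029, 0.047 and 0.131. With the replicate block 0 members were called in each comparison and 912, 88 and 340 genes in all. The intervals given do not exclude differences inside them, and for most members they lay within 1.25-fold either way.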

Other observations

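Among proteins of the mitochondrial membranes and matrix, 1 of the ADP/ATP carriers rose with valproic acid. This was Slc25a5, typical of dividing cells, at 259, 257 and 242 CPM with valproic acid against 228, 219 and 227 CPM in controls (log2 fold change 0.17, SE 0.0405, adjusted p = 0.0251). Slc25a4, the carrier typical of heart and muscle, had 419, 437 and 409 CPM with valproic acid against 452, 471 and 455 CPM in controls, without overlap (-0.12, SE 0.0353, adjusted p = 0.0505), and was called by DESeq2. The call of Slc25a5 was kept in 1 of 6 cases, that without valproic acid replicate 3, with adjusted p up to 0.0788 without any other library. It was not called with Y-linked expression (log2 fold change 0.19, adjusted p = 0.083) or Xist (0.25, adjusted p = 0.289) as a covariate. The phosphate carrier Slc25a3 had 242, 238 and 225 CPM with valproic acid against 202, 223 and 216 CPM in controls (0.14, SE 0.0426, adjusted p = 0.069), and was called by DESeq2 (adjusted p = 0.0381). The import receptor Tomm20 had 166, 165 and 166 CPM with valproic acid against 167, 172 and 173 CPM in controls (-0.04, SE 0.0347, adjusted p = 0.524). Of the 17 genes of this list, edgeR called 1 between valproic acid and control (5.88%, against 6.35% of all genes tested) and DESeq2 called 3, these carriers. At an unadjusted p under 0.05 there were 8 (47.1% against 22.1%), 5 higher and 3 lower. Between poly(I:C) and control 0 were called by edgeR or DESeq2, and 0 had an unadjusted p under 0.05 (against 12% of all genes tested).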
